A study of Mus musculus with 2 samples.

Results

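The 7 genes for scavenger and endocytic receptors, Cd163, Mrc1, Stab1, Msr1, Lyve1, Folr2 and Cd36, were followed through the immune cells of the mouse adrenal gland. They were chosen by name, and all 7 were present among the 32285 genes measured in both libraries. Adrenal glands were taken from untreated C57BL/6 mice at 7 weeks of age, and live cells (DAPI negative) that carried CD45, the surface protein of blood-derived cells, were sorted for 3′ single-cell RNA sequencing on the 10x Chromium platform. There was 1 library from female and 1 from male mice, so no difference between them has a replicate check, and every interval given here is a 95% interval that covers counting error only. How many animals went into each library is not given in the sources used here.

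Scavenger receptors take up modified lipoproteins, haemoglobin complexes, dying cells and other debris, and endocytic lectins bind sugars on glycoproteins. Ligand bound at the surface is carried into endosomes and lysosomes, and its lipid, iron or folate is stored, exported or used. Tissue macrophages are the best known users of this machinery, several of the receptors are also made by sinusoidal and lymphatic endothelium, and self-renewing resident macrophages that carry TIM4 (the product of Timd4) and LYVE1 are known from many organs.

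The female library held 3963 barcodes and 16218309 unique molecular identifiers (UMIs, each standing for 1 captured mRNA molecule), and the male library held 2685 barcodes and 9512670 UMIs. After filtering, 3694 female and 2449 male cells remained, and 2 barcodes occurred in both libraries. Cells were clustered without the 7 receptor genes and grouped by canonical markers. A class name here means that a cluster resembled that cell type by its markers, and none of the 7 receptors served as a marker. Macrophages numbered 816 in the female and 789 in the male library. They comprised a Timd4 subset of 92 and 162 cells, an Aldh1a2 subset of 90 and 102 cells, and 634 and 525 other macrophages in 3 clusters led by AA467197, Aif1 and Ms4a7. There were also 296 and 179 monocytes (Chil3-led and Ace-led clusters, the latter carrying markers of the patrolling type), 171 and 119 dendritic cells (Cd209a-led and Xcr1-led clusters), and 44 and 48 endothelial cells that had passed the CD45 gate. B cells, 515 and 268 in number, served as the low reference class for these receptors.

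Levels are given as CPM, which are the summed UMIs of a gene in a class and library, scaled by that class's total so that every class has the same sum. Shares are the percentage of cells with at least 1 UMI after each cell was thinned to 1000 UMIs, because the classes differed in depth. The median depth was 1765 and 1886.5 UMIs in the Timd4 subset, 2791.5 and 2992 in the Aldh1a2 subset, 3963.5 and 3407 in other macrophages, 2379.5 and 2324.5 in endothelial cells and 2208 and 1761.5 in B cells (female and male, the order kept throughout).

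The receptor genes lie on 6 chromosomes (GRCm38 coordinates). Cd163 (ENSMUSG00000008845) spans 124304656 to 124330527 on chromosome 6, Mrc1 (ENSMUSG00000026712) spans 14229392 to 14332057 on chromosome 2, Stab1 (ENSMUSG00000042286) spans 31139013 to 31168641 on chromosome 14 and Msr1 (ENSMUSG00000025044) spans 39581685 to 39642673 on chromosome 8. Lyve1 (ENSMUSG00000030787) spans 110850607 to 110863239 and Folr2 (ENSMUSG00000032725) spans 101839988 to 101857194, both on chromosome 7, and Cd36 (ENSMUSG00000002944) spans 17781690 to 17888801 on chromosome 5. All are annotated as protein coding. Stab1 shares exon bases with Nt5dc2 and Folr2 with Gm10602, each a gene of the other strand.

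Promoters are shown for the 4 genes that were high in the Timd4 subset and have an entry in the RefSeq promoter table, with that of Stab1, which stayed within 2-fold between the Timd4 subset and other macrophages, for contrast. Msr1 and Lyve1 have no entry there. Each sequence is the 120 bases directly before an annotated start in GRCm38.p6, written 5′ to 3′ on the gene's own strand, and Folr2 has 2 annotated starts. Capitals mark matches on either strand to GGAAGT (a core bound by PU.1-type ETS factors), TGCTGA (a core bound by MAF factors) or AGGTCA (a core bound by nuclear receptors).
Cd163, chr6:124304531-124304650, plus strand: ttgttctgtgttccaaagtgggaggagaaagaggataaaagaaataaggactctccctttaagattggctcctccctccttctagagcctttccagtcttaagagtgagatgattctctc
Mrc1, chr2:14229294-14229413, plus strand: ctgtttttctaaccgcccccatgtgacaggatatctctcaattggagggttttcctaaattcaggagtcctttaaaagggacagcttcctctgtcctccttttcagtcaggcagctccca
Stab1, chr14:31168642-31168761, minus strand: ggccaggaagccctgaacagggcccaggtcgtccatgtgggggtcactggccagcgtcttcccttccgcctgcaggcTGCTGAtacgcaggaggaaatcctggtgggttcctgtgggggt
Folr2, start 1, chr7:101857191-101857310, minus strand: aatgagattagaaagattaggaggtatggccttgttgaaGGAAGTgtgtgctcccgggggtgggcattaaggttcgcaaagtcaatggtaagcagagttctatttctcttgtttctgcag
Folr2, start 2, chr7:101845332-101845451, minus strand: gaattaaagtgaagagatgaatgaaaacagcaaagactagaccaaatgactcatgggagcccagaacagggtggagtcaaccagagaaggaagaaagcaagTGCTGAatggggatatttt
Cd36, chr5:17835897-17836016, minus strand: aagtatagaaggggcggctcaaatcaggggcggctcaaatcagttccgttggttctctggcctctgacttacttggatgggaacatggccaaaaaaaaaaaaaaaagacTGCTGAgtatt
Within the 250 bases before the start, GGAAGT was found once for Mrc1, 2 times at the first Folr2 start and once for Cd36. TGCTGA was found once for Stab1, once at each Folr2 start and once for Cd36, and AGGTCA once for Cd36. Of 32851 mouse promoters of the same length, 19.7% held GGAAGT, 16.1% held TGCTGA and 14.0% held AGGTCA, so each motif is common. No matches overlapped each other, and for Cd163 none of these letters was in the window.

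**Figure D1:**
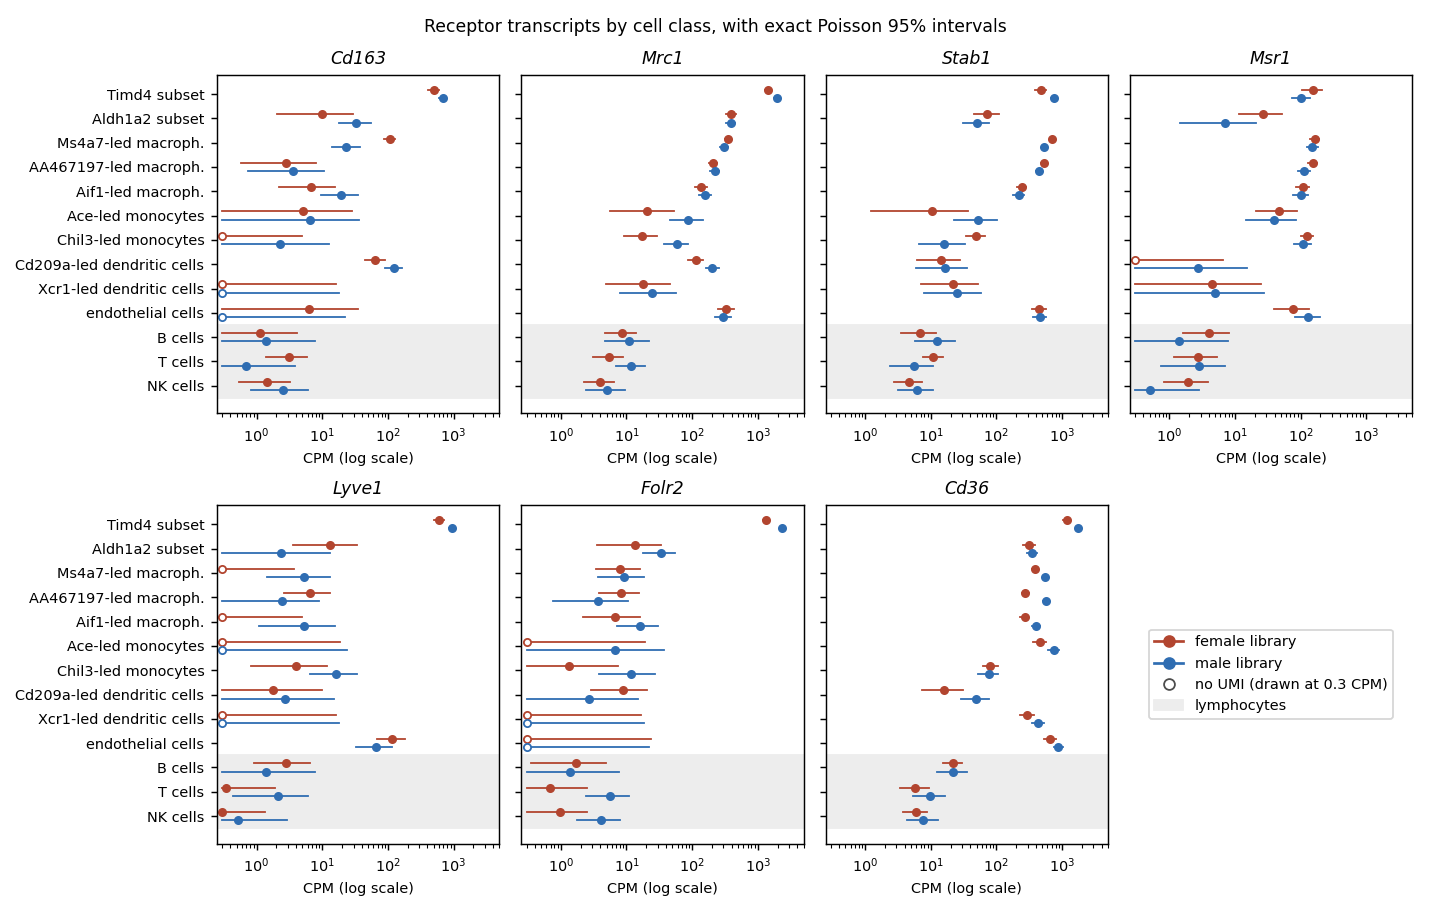
Levels of the 7 receptors in each macrophage subset or cluster and in 8 other cell groups. Each panel is 1 gene, the x axis is CPM on a log scale, points are the female (red) and male (blue) library, lines are exact Poisson 95% intervals, open points had no UMI and are drawn at 0.3 CPM, and grey shading marks lymphocytes. Folr2 and Lyve1 are far higher in the Timd4 subset than in the other macrophage groups (1332 and 2322 CPM for Folr2). Stab1 is lowest among macrophage groups in the Aldh1a2 subset (72.9 and 49.8 CPM). Cd36 is also found in Ace-led monocytes, Xcr1-led dendritic cells and endothelial cells.

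Cd163, the receptor for haemoglobin bound to haptoglobin, was highest in the Timd4 subset. Its level there was 502 CPM (415.5 to 600.3) in the female library and 689 CPM (608.1 to 777.7) in the male library, and 46.0% and 43.8% of thinned cells had a UMI. Elsewhere among macrophages it was low, at 9.94 and 33.2 CPM in the Aldh1a2 subset and 40.8 (33.7 to 48.9) and 14.8 (10.2 to 21.0) CPM in other macrophages. The female value for other macrophages came mostly from the Ms4a7-led cluster, at 107 CPM against 23.4 CPM in the male library, whereas the AA467197-led cluster held 2.76 and 3.65 CPM. Outside macrophages, Cd163 was found mainly in the Cd209a-led dendritic cells, at 64.4 (45.1 to 89.1) and 125 (91.5 to 167) CPM, and 5 cells supplied 58.3% and 58.7% of those UMIs. In the male library the Cd209a-led dendritic cells therefore ranked next after the Timd4 subset, and in the female library their interval met that of the Ms4a7-led cluster (88.0 to 129.8). B cells held 1.13 and 1.39 CPM.

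Mrc1, the macrophage mannose receptor, was found in more classes than Cd163 and had the same top class. The Timd4 subset held 1454 CPM (1305 to 1616) and 1933 CPM (1796 to 2078), with a UMI in 67.6% and 79.2% of thinned cells. Values in the Aldh1a2 subset (394 and 384 CPM), endothelial cells (328 and 299 CPM) and other macrophages (242 and 234 CPM) were several-fold lower. The intervals of endothelial cells (245.3 to 430.7 and 221.6 to 393.6) overlapped those of other macrophages (224.0 to 260.7 and 214.2 to 255.6) in both libraries. A ratio between these classes was not computed. Cd209a-led dendritic cells held 113 and 204 CPM and Chil3-led monocytes 17.3 and 57.8 CPM. B cells held 8.48 and 11.1 CPM, and 0.602% and 0.791% of them had a UMI.

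Stab1 encodes stabilin-1, which takes up modified low-density lipoprotein and SPARC and binds phosphatidylserine on dying cells. It had a different order. Other macrophages held 514 (487.7 to 540.9) and 416 (389.7 to 444.7) CPM, endothelial cells 449 (350.3 to 565.7) and 460 (362.8 to 574.6) CPM, and the Timd4 subset 472 (388.7 to 568.1) and 752 (667.5 to 844.6) CPM. In the female library these 3 classes overlapped, and in the male library the Timd4 subset was above the other macrophages and endothelial cells. The Aldh1a2 subset was far lower, at 72.9 and 49.8 CPM, with a UMI in 3.80% and 3.16% of thinned cells against 33.6% and 30.1% of other macrophages. Among other macrophages the Ms4a7-led cluster was highest (699 and 539 CPM) and the Aif1-led cluster lowest (242 and 218 CPM). Dendritic cells and monocytes held less than 60 CPM in each of their clusters, and B cells 6.78 and 12.5 CPM.

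Msr1, the class A scavenger receptor for modified lipoproteins and polyanions, was held at macrophage level by the Chil3-led monocytes. Other macrophages held 145 (131.6 to 160.2) and 123 (109.0 to 139.1) CPM, the Timd4 subset 152 and 103 CPM, and the Chil3-led monocytes 125 (101.2 to 153.2) and 109 (79.9 to 144.6) CPM. The intervals of these 3 overlapped in both libraries. Ace-led monocytes held 46.2 and 39.5 CPM. In the Aldh1a2 subset only 8 and 3 UMIs were counted, which gives 26.5 and 7.12 CPM, and in Cd209a-led dendritic cells 0 and 1. Endothelial cells held 75.8 and 131 CPM, and B cells 3.96 and 1.39 CPM.

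Lyve1, a hyaluronan receptor of lymphatic endothelium and of some resident macrophages, was found among macrophages almost wholly in the Timd4 subset. The subset held 599 (504.2 to 705.5) and 936 (841.5 to 1039) CPM, with a UMI in 35.1% and 52.3% of thinned cells. Other macrophages held 2.48 and 4.17 CPM from 7 and 9 UMIs, and the Aldh1a2 subset 13.3 and 2.37 CPM. Endothelial cells held 114 (67.4 to 179.7) and 65.7 (32.8 to 117.5) CPM, but these were 18 and 11 UMIs that all came from 5 or fewer cells. Of lymphatic endothelial genes in these cells, Prox1 had 0 and 2 UMIs and Mmrn1 and Ccl21a had 0, while Flt4, which blood endothelium can also express, stood at 246 and 197 CPM. B cells held 2.83 and 1.39 CPM.

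Folr2, the glycolipid-anchored folate receptor beta, was likewise concentrated in the Timd4 subset. It reached 1332 (1189 to 1487) and 2322 (2172 to 2481) CPM in the Timd4 subset, where 55.4% and 79.2% of thinned cells had a UMI, against 7.80 and 8.81 CPM in other macrophages and 13.3 and 33.2 CPM in the Aldh1a2 subset. Endothelial cells had 0 UMIs in both libraries, which allows up to 18.9 and 17.9 CPM (3 counts of the class total). Monocytes held 1.06 and 10.3 CPM and B cells 1.70 and 1.39 CPM.

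Cd36, the class B receptor for long-chain fatty acids, oxidised lipoproteins and thrombospondin, was spread over several lineages. The Timd4 subset held 1172 (1038 to 1318) and 1754 (1624 to 1892) CPM, followed by endothelial cells with 657 (536.8 to 796.0) and 878 (741.6 to 1032) CPM. In the other lineages it split between clusters. Ace-led monocytes held 457 (367.2 to 562.7) and 743 (612.5 to 893.5) CPM against 81.2 and 76.3 CPM in Chil3-led monocytes, and Xcr1-led dendritic cells held 298 (230.7 to 378.0) and 434 (348.5 to 535.3) CPM against 16.1 and 48.9 CPM in Cd209a-led dendritic cells. The endothelial and Ace-led monocyte intervals overlapped in both libraries. Other macrophages held 312 and 521 CPM and the Aldh1a2 subset 312 and 349 CPM. B cells held 21.5 and 22.2 CPM, against 5.83 and 9.73 CPM in T cells and 5.86 and 7.69 CPM in NK cells.

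Set against other macrophages, the Timd4 subset had 5 of the 7 receptors more than 2-fold higher in both libraries (Cd163, Mrc1, Lyve1, Folr2 and Cd36) and none more than 2-fold lower. Of 5084 genes with enough UMIs, 5.78% passed the same 2-fold mark upward and 5.82% downward. The ratios for Folr2 were 171 (110.8 to 276.4) and 264 (167.7 to 439.8), and for Lyve1 241 (114.0 to 610.7) and 224 (116.8 to 494.5). Cd163 was 12.3-fold (9.44 to 16.0) and 46.4-fold (32.1 to 69.3) higher, and the level in other macrophages differed between the libraries as given above. Mrc1 was 6.01-fold (5.27 to 6.86) and 8.25-fold (7.36 to 9.26) higher, and Cd36 3.76-fold (3.27 to 4.31) and 3.37-fold (3.06 to 3.71) higher. Stab1 stayed within 2-fold at 0.919 (0.751 to 1.11) and 1.81 (1.58 to 2.06), and so did Msr1 at 1.04 (0.721 to 1.47) and 0.831 (0.578 to 1.17). The median log2 ratio of the 7 genes was 2.59 and 3.04, against 0.00376 and -0.017 for all genes tested. Folr2 and Lyve1 were also among the genes that lead the Timd4 cluster, so these ratios describe it and were not tested.

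The Timd4 subset had UMIs of all 6 markers of its list, with Timd4 itself at 232 and 192 CPM, and the summed macrophage list stood at 14024 and 16079 CPM against 19155 and 19977 CPM in other macrophages. Its cells also had a higher median mitochondrial share (5.41% and 5.83% against 2.94% and 2.81%) and more RNA of adrenal hormone-producing cells (451 and 418 CPM against 228 and 206 CPM for the summed list), and the part of the hormone-cell RNA in the receptor levels was not tested. With cells above 5% mitochondrial UMIs left out, the ratios to other macrophages were 151 and 258 for Folr2, 280.4 and 234 for Lyve1, 11.4 and 48.8 for Cd163, 5.09 and 6.62 for Mrc1 and 3.52 and 2.98 for Cd36, and the same 5 receptors passed. The ceiling of 1.2% that the study states left 6 cells of the Timd4 subset in both libraries together, and at that ceiling only 1 receptor had enough UMIs and none passed 2-fold in both libraries. Summed erythroid genes stood at 25.3 and 23.7 CPM in the Timd4 subset, and endothelial genes at 122 and 57.9 CPM.

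**Figure D2:**
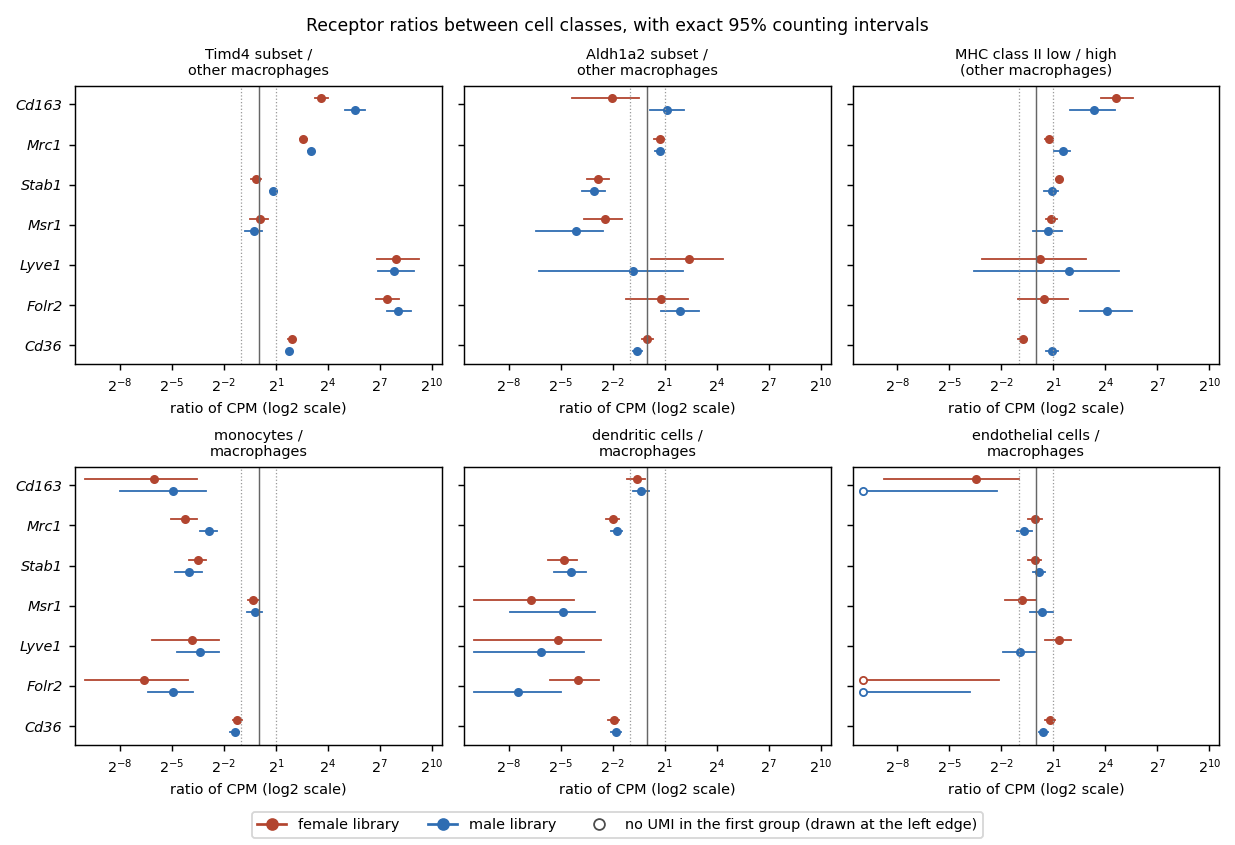
Ratios of CPM between cell groups for the 7 receptors, 1 panel per comparison. The x axis is the ratio on a log2 scale, points are the female (red) and male (blue) library, lines are exact 95% counting intervals, dotted lines mark 2-fold, and open points had no UMI in the first group. In the Timd4 subset 5 receptors lie right of the 2-fold line in both libraries, and Stab1 and Msr1 lie between the dotted lines. In the Aldh1a2 subset these 2 lie to the left.

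Genes that act beside the receptors were split in the Timd4 subset. Among 10 other scavenger, lectin and endocytic genes tested, 2 were more than 2-fold higher in both libraries and 2 lower. Clec10a, the galactose-type lectin of macrophages, rose from 11.4 and 18.1 CPM to 405 and 697 CPM (35.7-fold and 38.5-fold), and Dab2, a clathrin adaptor, was 2.71-fold and 4.50-fold higher. Cxcl16, a scavenger receptor and chemokine in 1 protein, was at 0.258 and 0.182 times the level of other macrophages, and Sorl1, a sorting receptor, at 0.356 and 0.138 times. Of 6 genes of haem and iron handling, Hmox1, the enzyme that opens the haem ring, was 4.74-fold and 4.19-fold higher, and Fth1, the ferritin heavy chain, was at 0.454 and 0.456 times. Of 9 lipid-handling genes, the fatty acid binding protein gene Fabp4 was 3.77-fold and 2.83-fold higher, while Abcg1, which exports cholesterol, was at 0.394 and 0.235 times and Apoe at 0.311 and 0.465 times. Of 6 transcription factor genes, Klf4 (3.96-fold and 15.8-fold) and Maf (2.30-fold and 3.53-fold) were higher and Nfe2l2, the regulator of the oxidative stress response, was lower (0.359 and 0.195 times). Neither of the 2 folate genes nor of the 2 ligand genes tested passed 2-fold in both libraries.

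Single cells of the Timd4 subset usually carried several receptors at once. At 1000 UMIs per cell the mean number of receptors detected was 3.04 of 7 in the female and 3.90 of 7 in the male library, against 0.923 and 0.973 in other macrophages, 0.582 and 0.611 in the Aldh1a2 subset and 0.0402 and 0.0632 in B cells. At least 3 receptors were seen in 64.9% (52.9 to 75.6) and 81.5% (73.8 to 87.8) of the Timd4 subset, in 5.92% and 5.57% of other macrophages and in 0% and 1.05% of the Aldh1a2 subset. Detection went together for some pairs and not for others. Folr2 was seen in 73.1% of the 26 female cells with Lyve1 and 45.8% of those without, and in 94.1% of the 68 male cells with Lyve1 and 62.9% of those without. Mrc1 was seen in 82.4% and 84.2% of cells with Cd163 and in 55.0% and 75.3% of cells without, a smaller gap in the male library. Stab1 was seen in 23.5% of female cells with Cd163 and 35% of those without, and Cd36 in 77.2% of male cells with Cd163 and 80.8% of those without. Msr1 was seen less often in cells with Lyve1 (3.85% and 8.82%) than in cells without (10.4% and 12.9%), on few cells.

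**Figure D3:**
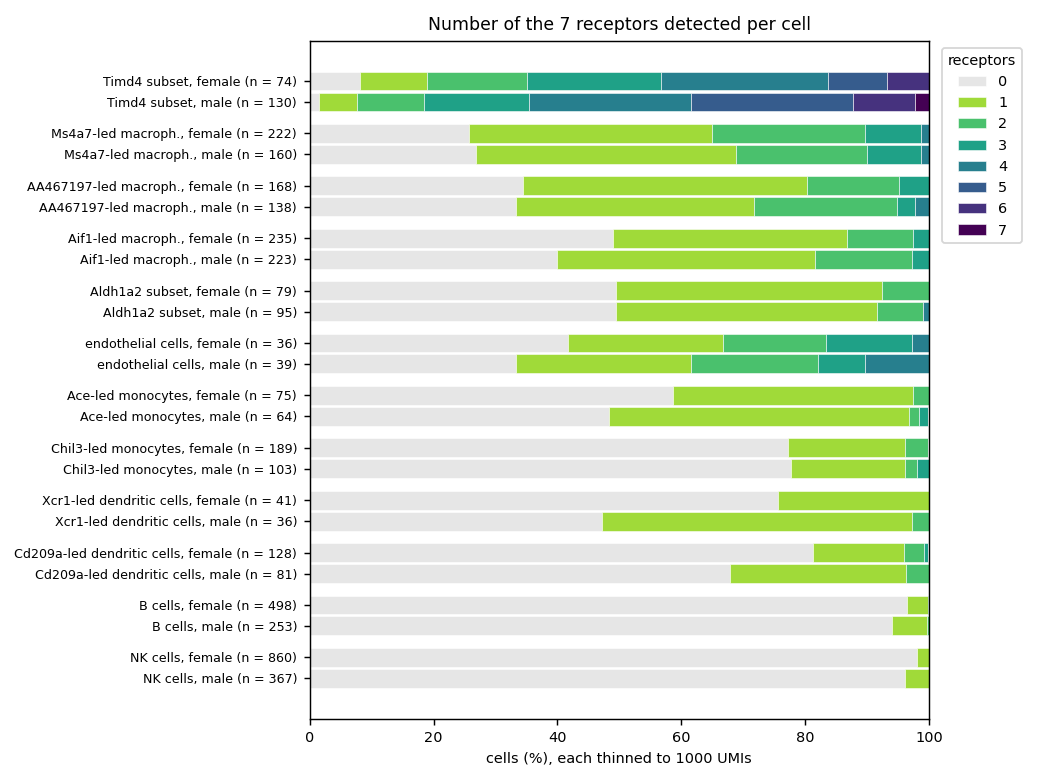
Number of the 7 receptors detected per cell after thinning to 1000 UMIs. The x axis is the percentage of cells, each bar is 1 cell group in 1 library with its number of cells, and colours give the number of receptors with at least 1 UMI. The bars of the Timd4 subset are made up mostly of cells with at least 3 receptors (64.9% and 81.5%), whereas those of the Aldh1a2 subset hold 0% and 1.05% of such cells.

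The Aldh1a2 subset was set apart by what it lacked. Of the 4 receptors with enough UMIs in both libraries, none was more than 2-fold higher than in other macrophages and 2, Stab1 and Msr1, were more than 2-fold lower, whereas 6.60% of 5094 tested genes were higher and 11.2% lower. Stab1 stood at 0.142 (0.0887 to 0.216) and 0.120 (0.0737 to 0.184) times the level of other macrophages, and Msr1 at 0.182 (0.0782 to 0.363) and 0.0577 (0.0118 to 0.17) times. Mrc1 was moderately higher at 1.63 (1.33 to 1.98) and 1.64 (1.37 to 1.96) times. Cd36 was level in the female library (0.9996, 0.799 to 1.24) and lower in the male library (0.670, 0.560 to 0.796). Cd163, Lyve1 and Folr2 were below the UMI minimum. Against the Timd4 subset, every receptor was lower in the Aldh1a2 subset, with Timd4-over-Aldh1a2 ratios from 3.69 (Mrc1) to 100.5 (Folr2) in the female library and from 5.03 (Mrc1 and Cd36) to 395 (Lyve1, 70.4 to 15633, on 1 UMI in the Aldh1a2 subset) in the male library.

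Of the pathway genes tested in the Aldh1a2 subset, more were lower than higher. There were 4 of 9 other receptor genes that were lower, and only Cd44, a hyaluronan receptor like Lyve1, was higher (4.77-fold and 4.10-fold). Lower also were 4 of 6 haem and iron genes, with Blvrb, a biliverdin reductase, at 0.183 and 0.193 times and Slc40a1, the iron exporter ferroportin, at 0.443 and 0.0760 times. Of 9 lipid genes, 3 were lower and 1 higher. Apoe stood at 0.0582 and 0.0595 times the level of other macrophages, and Lpl, the lipoprotein lipase gene, was 4.93-fold and 3.29-fold higher. Among 7 transcription factor genes, Irf4 (31.6-fold and 13.9-fold) and Klf4 (4.62-fold and 13.9-fold) were higher and 3 were lower, Maf at 0.168 and 0.308 times. Of 2 folate genes, Mthfd2 was 2.34-fold and 4.33-fold higher, and neither of 2 ligand genes passed 2-fold in both libraries.

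Other macrophages were next divided by their UMIs for MHC class II genes, the molecules that present antigen to T cells. Cells with at most 9 UMIs per 1000 from the 4 genes Cd74, H2-Eb1, H2-Ab1 and H2-Aa were called MHC class II low. They were 156 of 625 female cells (25.0%) and 19 of 521 male cells (3.65%), and 39 and 6 cells lay near the boundary, at 6 to 13 UMIs. Cd163, Lyve1 and Folr2 had too few UMIs to be counted. None of the other 4 receptors passed 2-fold in both libraries in either direction, and of 4571 genes 0.306% were higher and 0.525% lower in MHC class II low cells. Mrc1 was 1.71-fold (1.46 to 2.01) and 2.90-fold (2.09 to 3.95) higher and Stab1 2.52-fold (2.27 to 2.80) and 1.86-fold (1.38 to 2.46) higher in the MHC class II low cells, each past 2-fold in 1 library. Msr1 was 1.86-fold (1.51 to 2.28) and 1.64-fold (0.884 to 2.80) higher. The median of the 4 log2 ratios was 0.834 and 0.913, against 0.0784 and 0.109 for all genes tested. Cd36 went opposite ways in the 2 libraries, at 0.594 (0.494 to 0.711) and 1.91 (1.47 to 2.44).

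Cd163 had a wide contrast, although with 8 UMIs in the male MHC class II low cells it was below the minimum. In the female library it stood at 140 CPM in MHC class II low and 5.70 CPM in MHC class II high other macrophages. In the male library the same groups held 113.4 CPM and 11.04 CPM, a ratio of 10.27 (3.972 to 23.79). Within the Ms4a7-led cluster alone, 61 female MHC class II low cells held 412 CPM (334.0 to 502.4) against 9.25 CPM in MHC class II high cells, and 5 cells supplied 44.3% of the 97 UMIs. The same cluster of the male library gave 66.2 CPM from 4 UMIs against 19.8 CPM. In thinned cells, at least 3 receptors were detected in 24.6% of the 61 female and 14.3% of the 14 male MHC class II low Ms4a7-led cells, and in 4.97% and 9.59% of the MHC class II high ones. Markers of other groups also moved. In the female library the summed monocyte list stood at 472 CPM in MHC class II low other macrophages and 177 CPM in MHC class II high other macrophages (14.2 and 49.9 CPM in the male library), and the summed Timd4-subset list at 73.3 and 7.61 CPM (99.3 and 17.8 CPM). Their part in the receptor values was not tested. Among pathway genes, Siglec1, the sialic acid lectin of resident macrophages, was the single gene of 9 other receptors past 2-fold (2.04-fold and 2.31-fold higher), and none of 6 haem and iron, 9 lipid, 2 folate, 2 ligand and 4 transcription factor genes passed.

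Within the Timd4 subset, the division into MHC class II low (16 and 31 cells) and high (58 and 99 cells) gave no order that held in both libraries for most receptors. Folr2 in the low cells stood at 0.458 (0.327 to 0.629) times the high cells in the female library and 1.45 (1.24 to 1.68) times in the male library. Stab1 was higher in the low cells in both, at 1.68 (1.12 to 2.51) and 1.32 (0.993 to 1.74) times, the male interval including 1.

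As a class, monocytes held less of 6 receptors than macrophages did, and a similar level of Msr1. The 6 were more than 2-fold lower in both libraries and none was higher, against 8.79% and 4.47% of 6203 genes tested. Monocyte-over-macrophage ratios were 0.0150 and 0.0329 for Cd163, 0.0527 and 0.137 for Mrc1, 0.0875 and 0.0630 for Stab1, 0.0697 and 0.0968 for Lyve1, 0.0104 and 0.0332 for Folr2 and 0.426 and 0.382 for Cd36. Msr1 stood at 0.806 (0.644 to 1.0) and 0.871 (0.638 to 1.17). The monocyte clusters differed from each other in Msr1 and Cd36. Cd36 was not lower in the Ace-led cluster, which held 457 and 743 CPM against 372 and 655 CPM in all macrophages. The Chil3-led cluster held 81.2 and 76.3 CPM. Chil3-led monocytes had 2.71-fold (1.37 to 6.10) and 2.75-fold (1.18 to 7.89) more Msr1 than Ace-led monocytes, and 0.178 (0.126 to 0.249) and 0.103 (0.0675 to 0.153) times their Cd36. Of 11 other receptor genes, 3 were higher in monocytes, among them Cd44 by 3.99-fold and 3.56-fold, and 3 were lower, Dab2 at 0.0566 and 0.0399 times. Among 7 haem and iron genes 1 was higher and 3 were lower, and the haptoglobin gene Hp, whose product carries haemoglobin to CD163, was 77.3-fold and 39.8-fold higher in monocytes. Lower were 4 of 9 lipid genes, Apoe at 0.118 and 0.177 times, and 2 of 7 transcription factor genes were lower and 1 higher, Maf at 0.194 and 0.193 times and Klf4 at 6.39-fold and 4.66-fold. None of 2 folate and 4 ligand genes passed.

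Dendritic cells, which take up antigen chiefly to present it, were lower than macrophages for 6 of the 7 receptors in both libraries, against 14.9% of 6181 genes tested, and higher for none, against 2.15%. The median over all genes tested was itself -0.383 and -0.372 on the log2 scale, and that of the receptors -4.0 and -4.4. Cd163 was the exception, at 0.650 (0.445 to 0.927) and 0.774 (0.555 to 1.06) times the macrophage level. With 5% as the mitochondrial ceiling these ratios were 0.906 and 1.39. With no gene held out of the clustering, the Cd209a-led cluster stayed unnamed. Only 77 dendritic cells, all Xcr1-led, were then compared in place of 290, and the Cd163 ratios were 0 and 0. Msr1 (0.00943 and 0.0337) and Folr2 (0.0626 and 0.00566) were almost missing. The dendritic clusters carried different receptors. Mrc1 was 6.34-fold (2.36 to 24.0) and 8.25-fold (3.38 to 26.1) higher in Cd209a-led cells than in Xcr1-led cells, Cd36 was at 0.0541 (0.0237 to 0.109) and 0.112 (0.0638 to 0.188) times, and Cd163 had 0 UMIs in Xcr1-led cells of either library, which allows up to 13.3 and 14.8 CPM. Of the pathway genes in dendritic cells, 6 of 11 other receptors, 6 of 6 haem and iron genes, 6 of 9 lipid genes, 2 of 4 ligands and 4 of 7 transcription factors were lower, none was higher and neither folate gene passed. Apoe stood at 0.0142 and 0.0434 times and Maf at 0.0266 and 0.0361 times the macrophage level.

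Endothelial cells matched macrophages in Stab1 and came near them in Mrc1, exceeded them modestly in Cd36, and had 1 and 0 UMIs of Cd163 and 0 UMIs of Folr2. The latter 2 were the only receptors more than 2-fold lower in both libraries and none was more than 2-fold higher, against 7.00% and 7.19% of 6217 genes tested. Endothelial-over-macrophage ratios were 0.952 (0.739 to 1.21) and 1.13 (0.884 to 1.42) for Stab1, 0.963 (0.715 to 1.27) and 0.630 (0.465 to 0.835) for Mrc1 and 1.76 (1.43 to 2.16) and 1.34 (1.13 to 1.59) for Cd36. With 5% as the mitochondrial ceiling the Cd36 ratio was 2.00 (1.55 to 2.55) in the female library and turned to 0.443 (0.298 to 0.636) in the male library. Cd163 stood at 0.0895 (0.00226 to 0.504) times the macrophage level in the female library and at 0 (0 to 0.213) times in the male library. Folr2 stood at 0 (0 to 0.230) and 0 (0 to 0.0713) times. As few as 5 cells supplied 64.4% and 65.3% of the endothelial Cd36 UMIs and 51.9% and 54.0% of the Mrc1 UMIs. All 8 endothelial markers were present (summed 8622 and 8766 CPM) in endothelial cells, and so was macrophage RNA, the summed macrophage list standing at 4283 and 4813 CPM. Endothelial cells were also counted without those that had a C1q UMI, C1q being made by macrophages. In the 26 and 23 cells left, Mrc1 stood at 432 and 528 CPM, Stab1 at 566 and 456 CPM and Cd36 at 447 and 911 CPM, and Cd163 and Folr2 had 0 UMIs. The part of macrophage RNA in the endothelial values was not tested. Of other genes, Fabp4 was 44.1-fold and 20.7-fold and Fabp5 4.61-fold and 5.22-fold higher (2 of 9 lipid genes higher, 5 lower), Scarb1, another class B receptor, was 4.94-fold and 3.47-fold higher (1 of 11 other receptors, with 4 lower), and Sparc, a ligand of stabilin-1, was 44.1-fold and 58.6-fold higher (1 of 4 ligands, with 1 lower). Of 6 haem and iron genes 4 were lower, and of 7 transcription factor genes 3 were lower and Klf4 was higher (3.30-fold and 2.15-fold).

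Across all macrophages, 5 receptors were lower in the female than in the male library, and 2 of them, Lyve1 and Folr2, by more than 2-fold. None was more than 2-fold higher. Of 6841 genes, 0.658% were more than 2-fold higher and 0.819% more than 2-fold lower in the female library. Folr2 stood at 102 and 310 CPM, a ratio of 0.329 (0.289 to 0.373), and Lyve1 at 45.5 and 124 CPM, a ratio of 0.368 (0.303 to 0.446). Cd36 (372 and 655 CPM, 0.569), Cd163 (70.6 and 104 CPM, 0.677) and Mrc1 (341 and 474 CPM, 0.720) were lower by less. Stab1 (471 and 407 CPM, 1.16) and Msr1 (135 and 104 CPM, 1.30) were higher. The Timd4 subset made up 11.3% (9.19 to 13.6) of female and 20.5% (17.8 to 23.5) of male macrophages. The Timd4 subset, the Aldh1a2 subset and each cluster of other macrophages were then weighted to the same shares in both libraries. The ratio of Folr2 became 0.575 and that of Lyve1 0.643, so that no receptor passed 2-fold. This weighting was chosen after the values were seen. Below a mitochondrial ceiling of 1.2%, which left 157 macrophages, the directions turned, to 6.52 (2.33 to 22.5) for Folr2 and 9.06 (1.93 to 85.0) for Lyve1.

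**Figure D4:**
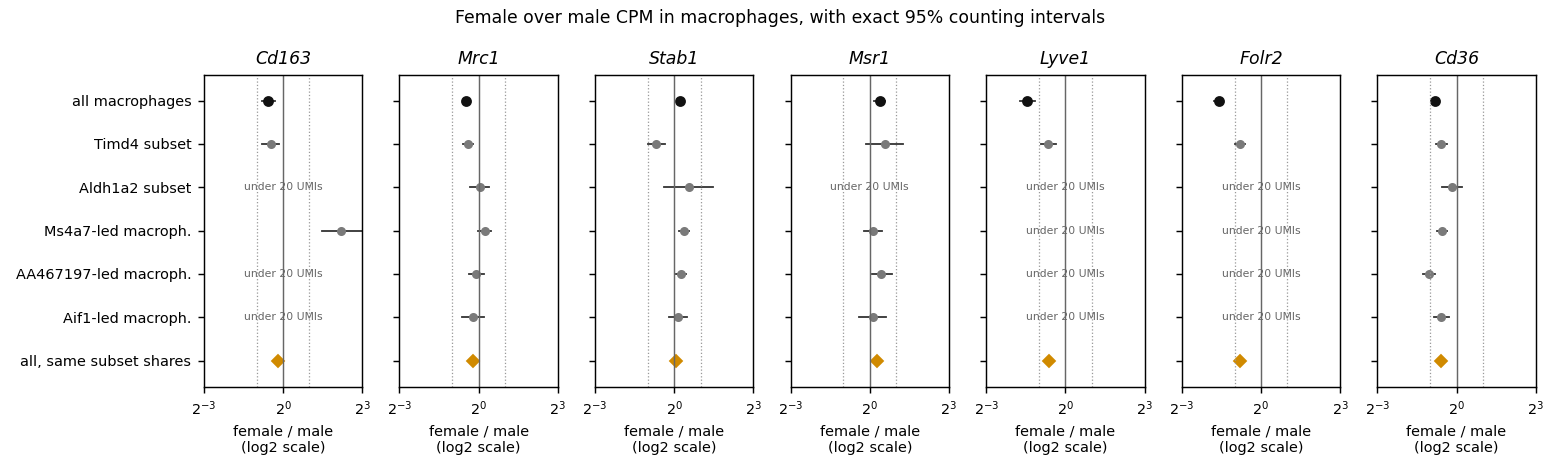
Female over male ratio of CPM in all macrophages, in their subsets and clusters, and in all macrophages weighted to the same subset shares (orange diamonds). Each panel is 1 gene, the x axis is the ratio on a log2 scale, lines are exact 95% counting intervals, dotted lines mark 2-fold, and groups with fewer than 20 UMIs in the 2 libraries together are not drawn. For Folr2 and Lyve1 the ratio over all macrophages (0.329 and 0.368) lies left of the 2-fold line and the diamond (0.575 and 0.643) does not.

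Within subsets the libraries differed in a less uniform way. In the Timd4 subset the female-over-male ratio was 0.574 for Folr2, 0.639 for Lyve1, 0.628 for Stab1, 0.668 for Cd36, 0.728 for Cd163 and 0.752 for Mrc1, and 1.48 for Msr1. In other macrophages Cd163 was 2.75-fold (1.84 to 4.20) higher in the female library and Cd36 lower at 0.598, while Mrc1 was 1.03 and Stab1 1.23. The Cd163 gap lay in the Ms4a7-led cluster, at 4.59-fold (2.77 to 8.03), and the female library also held more MHC class II low cells in that cluster, 61 of 222 against 14 of 160. In the MHC class II low cells of that cluster the female-over-male ratio of Cd163 was 6.22 (2.35 to 23.3), on 97 and 4 UMIs. In the MHC class II high cells of the cluster it was 0.467 (0.160 to 1.24), on 7 and 14 UMIs. Over the MHC class II low cells of all other macrophages the ratio was 1.23 (0.601 to 2.93), on 99 and 8 UMIs. The part of the cell shares in the Cd163 gap was not tested. Cd36 was lower in the female library in the Timd4 subset, in each cluster of other macrophages (ratios of 0.485, 0.671 and 0.685), in Ace-led monocytes (0.615), in Xcr1-led dendritic cells (0.685) and in endothelial cells (0.748). The intervals included 1 in the Aldh1a2 subset (0.893, 0.682 to 1.17) and in Chil3-led monocytes (1.06, 0.686 to 1.68). With 1 library per sex, sex and library cannot be told apart. Among the pathway genes, 3 of 13 other receptors tested were more than 2-fold lower in female macrophages. They were Clec10a (44.1 and 111 CPM, 0.397), Colec12 (0.495) and Tfrc, the transferrin receptor gene (0.499, named here after its value was seen). Of 9 lipid genes Fabp4 was lower (0.484), and none of 6 haem and iron, 3 folate, 5 ligand and 7 transcription factor genes passed.

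Patterns across cell groups were compared by Pearson's r of log2(CPM + 10) over 30 profiles, 15 cell groups in each of 2 libraries. The points share libraries and the macrophage groups share most of their expression, so r is a description. Among the receptors, Stab1 and Msr1 (0.843), Cd163 and Folr2 (0.833), Lyve1 and Folr2 (0.831) and Mrc1 and Stab1 (0.829) were most alike, and Cd163 and Msr1 least (0.299). Of all genes, those nearest to Folr2 were Cd209f (0.974), Pla2g2d (0.966) and Cd209g (0.965), and those nearest to Lyve1 were Ednrb (0.922), Plekhg5 (0.913) and Cxcl12 (0.896). Stab1 was nearest to Mertk (0.947), a receptor for dying cells, and to the complement genes C1qc (0.946) and C1qa (0.945). Mrc1 was nearest to Dab2 (0.960), Gas2l3 (0.907) and Spire1 (0.904), and Msr1 to Apoe (0.920), Slc35f6 (0.897) and Fcgr1 (0.895). Cd163 was nearest to Fxyd2 (0.872), Rnf150 (0.849) and Folr2 (0.833), and Cd36 to Ctnnd1 (0.879) and Sdc3 (0.867). Cd209f and Cd209g were markers used to name the Timd4 subset, and Mertk, C1qa, C1qc and Fcgr1 to name macrophages. Their r is therefore not independent of the grouping.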

How the data were processed

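CD45+ live cells of adrenal glands from 7-week-old C57BL/6 mice were sequenced as 1 female and 1 male library, and the groups were taken from the labels. The authors deposited raw UMI counts per gene and barcode, made with Cell Ranger 4.0.0 on mm10 per the file headers and the submitters' processing notes, and kept barcodes by a knee-inflection approach. The study states a mitochondrial ceiling of 1.2%, which would keep 323 female and 354 male barcodes, far fewer than the cells it reports, so a ceiling of 15% was used with a minimum of 200 genes. Doublets were removed by their Scrublet score (scanpy 1.11.5) at a fixed 0.8% per 1000 barcodes, because the automatic threshold marked 1 and 8 cells and had not worked. Clustering used sctransform 0.4.2 within Seurat 5.3.0, run in R 4.3.3 (2000 features, 20 components, resolution 1), with 110 genes held out, among them the 7 receptors, the pathway lists and the MHC class II genes. A cluster was named for a class when 3 or more of the class's markers were raised 2-fold and seen in 20% or more of the cluster. In addition, 75% or more of the cluster had to have a UMI of any marker. No other class, nor the list of cycling genes, could have more markers among the 10 leading genes. Shallow clusters also needed a marker of the class among those genes. This rule was relaxed after the clusters were seen. The subclusters carry the name of a leading gene. A shallow cluster led by Clec4f and the clusters led by Cpa3, Hist1h1b and Prc1 stayed unnamed and belong to no class.

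UMIs were summed per class and library and written as CPM, with exact Poisson intervals for levels, exact Clopper-Pearson intervals for shares and exact binomial intervals for ratios (scipy 1.17.1, Python 3.11.15). Cells with fewer than 1000 UMIs were left out of thinned shares. In the order female and male this kept 74 and 130 cells of the Timd4 subset, 79 and 95 of the Aldh1a2 subset, 625 and 521 other macrophages, 36 and 39 endothelial cells and 498 and 253 B cells. Features counted as tested had at least 50 UMIs in a compared group, in each library, and were called when they differed by more than 2-fold, in both libraries except between the sexes. With 1 library per sex no p-value was computed. The boundary for MHC class II was set from the distribution by Otsu's method. The receptors and gene lists were chosen with earlier results of these data known. Of the pathway genes all were counted, and those with the 2 highest and 2 lowest ratios of a list in a comparison could be named. The most alike genes are the 3 with the highest r among genes with at least 100 UMIs. Clec7a was not analysed here, and some genes that these rules name are not reported here. Promoters came from the RefSeq table for GRCm38.p6, and gene positions from an annotation of GRCm38. On simulated counts for 32285 genes with 3-fold changes, the Timd4-subset comparison recovered 98 of 100 raised and 71 of 100 lowered genes and called 7 of 4941 unchanged genes. The same check of the MHC class II comparison recovered 86 and 77 of 100 and called 9 of 4371 unchanged genes. The simulated counts held counting error only, with no spread between cells or animals, so they do not give the error rate of the real calls. Alternatives to the ceiling, gene minimum, doublets, clustering, gating, scaling, call rule and thinning were computed.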

Additional observations from a re-analysis of the deposited data

Results flagged for a closer look

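In all, 8 ratios between cell groups had a 95% counting interval wholly below 1 in 1 library and wholly above 1 in the other, and none of these differences was tested, since each sex has 1 library. Cd163 in the Aldh1a2 subset stood at 0.244 times the level of other macrophages in the female and 2.24 times in the male library, where the 3 female UMIs set the precision. Within the Timd4 subset, the ratio of MHC class II low to high cells was 0.410 and 1.56 for Cd163, 0.742 and 1.21 for Cd36 and 0.458 and 1.45 for Folr2, with 16 and 31 MHC class II low cells. In other macrophages the same ratio for Cd36 was 0.594 and 1.91, with 156 and 19 low cells, and inside the Ms4a7-led cluster it was 0.667 and 1.98. Lyve1 in endothelial cells stood at 2.50 and 0.531 times the level of all macrophages, on 18 and 11 UMIs, and the macrophage level itself was 45.5 and 124 CPM. Stab1 in Chil3-led over Ace-led monocytes stood at 4.80 and 0.308, with 2 and 8 UMIs in the Ace-led cells.

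Receptor transcripts also appeared in cells outside the comparisons. The unnamed cluster led by Clec4f (72 and 141 cells, median 798 and 670 UMIs) held 5 of the 7 receptors with an interval wholly above that of B cells in both libraries, among them Stab1 at 590.4 and 1000 CPM, Mrc1 at 345 and 509 CPM and Cd36 at 479 and 518 CPM. The 137 and 170 barcodes over the mitochondrial ceiling held 7 of the 7 above B cells by the same measure, among them Folr2 at 134 and 413 CPM and Cd163 at 115 and 270 CPM.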

How the results depend on the processing

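Of 85 counts recomputed under an alternative, 76 stayed within 1.5 times the reported count and 9 did not. A mitochondrial ceiling of 1.2% left 157 macrophages and few tested receptors. At that ceiling the counts past 2-fold became 1 of 3 tested for female against male (higher in the female library), 0 of 1 for the Timd4 subset, 1 of 1 for the Aldh1a2 subset, 3 of 4 for monocytes and dendritic cells together (12 of 14 as reported) and 0 of 2 for endothelial cells. In the MHC class II comparison, 1 receptor instead of 0 passed when each cell was gated on its own marker UMIs, when cells were weighted equally, and with the boundary at 5 UMIs per 1000. Weighting both libraries to the same subset shares left 0 receptors past 2-fold between the sexes. Of single receptor ratios, 698 stayed within the reported counting interval, 114 left it and 5 that were past 2-fold as reported turned to the other side of 1. These 5 came with the 1.2% ceiling: female over male, Lyve1 became 9.06 and Folr2 6.52, and on the few cells left Cd163 and Lyve1 in the male Timd4 subset and Lyve1 in female endothelial cells became 0. Ratios reported within 2-fold also crossed 1, among them Cd163 female over male (2.23) and male Cd163 in dendritic cells over macrophages (4.18) with the 1.2% ceiling, and male Cd36 in endothelial cells over macrophages (0.443) with a 5% ceiling. The share of genes past 2-fold, pooled over the comparisons, was 10.9%, and it was 12.0% with at least 200 and 14.3% with at least 10 UMIs. Gating by each cell's own UMIs put 34 and 93 cells in the Timd4 subset against 92 and 162. With no gene held out 77 dendritic cells, all Xcr1-led, were named against 290. Counting the Clec4f-led cluster as macrophages, the boundaries at 5 and 20 UMIs, endothelial cells without C1q and the weighting were chosen after seeing the data. No paired analysis was possible because no test was made with 1 library per sex. Cell groups were compared inside each library, so each library's value stands without the other, and the sexes cannot be compared without both. Several receptors rest on fewer than 20 UMIs in endothelial cells, dendritic cells, monocytes, the Aldh1a2 subset and male MHC class II low cells.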
